A study of Sus scrofa with 30 samples.

Results

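The 9 mesenchymal teat pieces described here are those in which beta-casein (CSN2), the most familiar milk protein gene, was low, and they fall into 4 pieces with much KRT19 and 5 with little. The 9 of 30 arrays were chosen by 2 measured values: among arrays labelled mesenchymal, CSN2 had to lie below 10, and those were then split at a KRT19 value of 7. All values are on a log2 scale, and where several probe sets stand for a gene the brightest on average is read. Because KRT19 on these same arrays set the split, every difference between the 4 and the 5 is a description and carries no test. The question that the split addresses is which genes come with luminal keratin in pieces where beta-casein is low.

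The study measured expression in teats of 10 peripubertal pigs from commercial dam lines, taken at slaughter at a mean end weight of 110 kg, with 1 Affymetrix porcine array per epithelial or mesenchymal piece. Teats were classed as normal or inverted by looking and feeling, and animals as affected or non-affected by whether they had inverted teats. This gave 6 groups of 5 arrays, since for either tissue the 5 non-affected animals gave a normal teat and the 5 affected animals gave a normal and an inverted one. An inverted teat has its tip turned inward, a common udder defect in sows.

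The 4 pieces with KRT19 above 7 came from 4 animals. They were the normal teat of animal 1040 (non-affected, Large White x German Landrace), the inverted teat of animal 1059 (affected, Large White x German Landrace), and 2 of Pietrain x (Large White x German Landrace): the inverted teat of animal 1103 (affected) plus the normal teat of animal 1109 (non-affected). The 5 pieces with KRT19 below 7 also came from 4 animals. They were both teats of animal 1037 (affected), the normal teat of animal 1058 (non-affected) and the normal teat of animal 1059, all Large White x German Landrace, and the normal teat of animal 1103. Both sides together held 6 animals, 6 normal teats and 3 inverted teats, and animals 1059 and 1103 gave 1 piece to each side. A further 6 mesenchymal pieces had CSN2 between 12.94 and 16.17. They came from 4 other animals: 950 (non-affected) and 964 (affected), both Large White x German Landrace, and 957 (non-affected) and 963 (affected), both German Landrace. No treatment or allele is named for any animal. Pieces are named below by animal number and teat.

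The ducts and the cistern that run through a teat are lined by luminal epithelium, which carries keratins 8, 18 and 19, and this layer rests on a basal layer and on connective tissue with vessels, muscle and fat. In the mammary gland the transcription factors FOXA1 and GATA3 mark hormone-sensing and maturing luminal cells, and adhesion proteins such as EPCAM and E-cadherin join the cells to each other. Casein and whey protein genes are switched on in luminal cells when they take up secretion, so a luminal cell can carry its keratins with or without milk transcripts.

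The labels were checked against marker genes before any comparison. The fibroblast and matrix list (27 genes measured) had a mean level of 9.73 to 10.92 in the 9 mesenchymal pieces and of 9.77 to 10.78 in the epithelial pieces of the same teats, so it did not separate the tissues. The adipocyte list (17 genes) did, with 9.90 to 10.79 in mesenchymal and 7.36 to 9.41 in epithelial pieces. The inverted teat of animal 1103 went against its labels in luminal genes. Its mesenchymal piece had a mean of KRT8, KRT18 and KRT19 of 8.76 and its epithelial piece only 6.75, and EPCAM was 4.69 in that epithelial piece against 8.62 to 10.38 in the other 8. The smooth muscle list was at 10.50 in its epithelial and 8.59 in its mesenchymal piece. That list did not separate the tissues, at 8.54 to 9.92 in the 9 mesenchymal and 8.61 to 10.50 in their epithelial pieces. Other lists ran with the labels in 1103 inverted: the adipocyte list was at 10.79 in its mesenchymal and 7.94 in its epithelial piece, and skeletal muscle at 8.46 and 5.52. Its epithelial piece had a KRT19 value of 6.87, under the threshold of 7, so with the labels of its pieces exchanged this teat would stand on the keratin-low side. Whether the pieces were exchanged or mixed was not tested. The counts of symbols, the differences of the 16 leading symbols, the luminal list medians and the epithelial tests are given with and without this teat. In 1059 inverted too the mesenchymal keratin mean was not below the epithelial one, at 9.65 and 9.59. The mesenchymal piece of 1040 normal stood apart in another way: its skeletal muscle list (28 genes) was at 3.73, against 8.46 to 11.77 in the other 8 pieces.

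KRT19, an acidic keratin of simple epithelia, spanned a wide range in the 9 pieces. In the keratin-high pieces its value was 8.36 in 1040 normal, 10.68 in 1059 inverted, 9.77 in 1103 inverted and 7.80 in 1109 normal. In the keratin-low pieces it was 3.60 in 1037 normal, 4.80 in 1037 inverted, 1.61 in 1058 normal, 6.41 in 1059 normal and 3.47 in 1103 normal. The group means were 9.15 ± 1.31 (SD, n = 4) and 3.98 ± 1.77 (SD, n = 5), and the difference of 5.17 follows from the rule. Just inside the threshold lay 1109 normal at 7.80 and just outside it 1059 normal at 6.41. Set against all probe sets of its own array, KRT19 lay between the percentiles 81.2 and 97.9 on the high side and between 5.2 and 61.9 on the low side. In 3 of the 5 low pieces it lay under the array's 30th percentile (4.49 to 4.67 over the 9 arrays), where values are close to background and their order says little. In the 6 pieces with high CSN2, KRT19 ran from 10.48 to 12.05, so the highest low-CSN2 piece, 1059 inverted, reached into that range.

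KRT18, the partner of KRT8 in the filaments of luminal cells, followed the same split without overlap. It was 6.59 in 1040 normal, 8.26 in 1059 inverted, 7.62 in 1103 inverted and 5.20 in 1109 normal. On the low side it was 4.25 in 1037 normal, 4.21 in 1037 inverted, 1.07 in 1058 normal, 4.04 in 1059 normal and 0.00 in 1103 normal. The means were 6.92 ± 1.34 (SD, n = 4) and 2.71 ± 2.02 (SD, n = 5), a difference of 4.21, and all 5 low values lay under the 30th percentile of their arrays.

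KRT8 was higher on average in the same 4 pieces, but 1 low piece reached them. Its value was 6.88 in 1040 normal, 10.02 in 1059 inverted, 8.88 in 1103 inverted and 6.93 in 1109 normal. It was 5.52 in 1037 normal, 6.56 in 1037 inverted, 5.21 in 1058 normal, 6.91 in 1059 normal and 3.66 in 1103 normal. The means were 8.18 ± 1.54 (SD, n = 4) and 5.57 ± 1.28 (SD, n = 5), and 1059 normal lay just above 1040 normal. The other KRT8 probe set did not overlap, with means of 7.78 and 2.66, so the overlap depends on the probe set read.

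**Figure D1:**
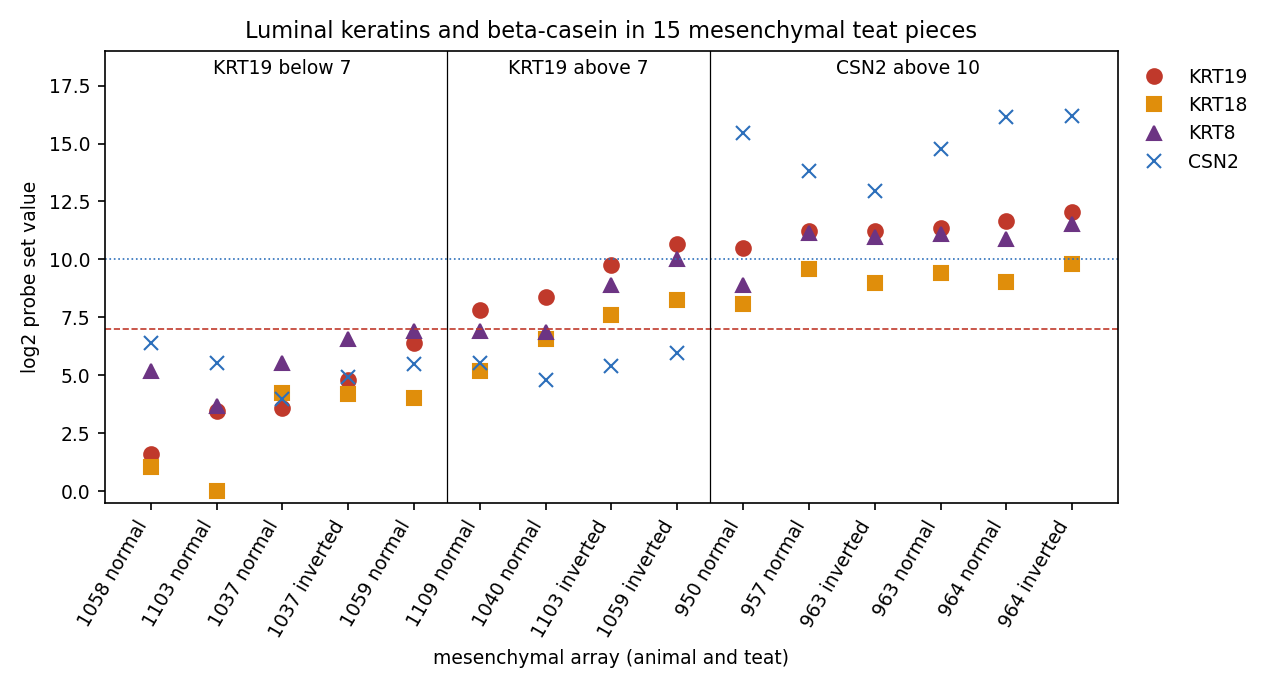
Log2 probe set values (vertical axis) of KRT19, KRT18, KRT8 and CSN2 in each of the 15 mesenchymal pieces (horizontal axis), ordered by side; the dashed line marks the KRT19 value of 7 and the dotted line the CSN2 value of 10. CSN2 lies between 4.0 and 6.39 in all 9 pieces to the left, while KRT19 runs from 1.61 to 10.68 in them.

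CSN2 itself did not follow the keratins within the 9 pieces. It was 4.79 in 1040 normal, 5.95 in 1059 inverted, 5.41 in 1103 inverted and 5.52 in 1109 normal, and it was 4.0 in 1037 normal, 4.92 in 1037 inverted, 6.39 in 1058 normal, 5.50 in 1059 normal and 5.55 in 1103 normal. The group means differed by 0.15 and the groups overlapped, with the highest CSN2 in the piece with the least KRT19.

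Low CSN2 did not mean that every milk gene was at background, since 1109 normal stood above the other 8 pieces for several of them. CSN1S1, which encodes alpha-s1-casein, was 6.31 there and between 0.00 and 4.39 in the other 8. CSN3, the kappa-casein gene, was 5.10 there and at most 3.43 elsewhere. Both genes failed the filter on low values in this set, and both were well below their range in the pieces with high CSN2 (8.95 to 12.42 for CSN1S1 and 7.18 to 11.14 for CSN3). PAEP, a lipocalin gene, was 5.20 in 1040 normal, 6.52 in 1059 inverted, 7.34 in 1103 inverted and 8.42 in 1109 normal, against 4.78 in 1037 normal, 5.48 in 1037 inverted, 5.21 in 1058 normal, 5.08 in 1059 normal and 4.74 in 1103 normal. Its groups overlapped at 1040 normal, and all 9 values lay below the 11.50 to 13.34 of the high-CSN2 pieces. The wording "low CSN2" is therefore kept for the 9 pieces.

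Across all genes, few others separated the same 4 pieces from the same 5. A gene was counted where its groups did not overlap and its group means differed by at least 1, that is 2-fold if the logarithm is to base 2, among the 6009 symbols that lay above the array's 30th percentile in at least 4 of the 9 arrays. A total of 16 symbols were higher with KRT19 (0.266% of 6009) and 2 were lower (0.0333%). KRT19 is itself 1 of the 16. With no minimum difference, 127 symbols were higher without overlap (2.11%) and 35 lower (0.582%), and the median difference over all 6009 was 0.04. Among 17337 probe sets, named or not, 36 were higher by at least 1 (0.208%) and 4 lower (0.0231%). Without a minimum difference 475 probe sets were higher without overlap (2.74%) and 71 lower (0.41%). The filter needs as many arrays as the high side holds, and KRT18, KIAA1324, FOXA1 and TFAP2B passed it through the high side alone. Leaving out 1103 inverted gave 17 higher symbols, 16 of them shared, and 4 lower, 2 of them shared. Without it the differences of the 16 ran from 1.15 to 6.53, and they were 4.97 for KRT19, 4.61 for EPCAM, 4.36 for FOXA1 and 1.47 for GATA3. The counts depended more on other pieces. The higher count was 25 without 1040 normal and 28 without 1109 normal. The lower count was 18 without 1059 inverted, 7 without 1103 normal, 6 without 1040 normal and 4 without 1059 normal.

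The largest difference of the 16, above that of KRT19 itself, belonged to LOC100737483, a gene known here only by its locus name. It was 7.52 in 1040 normal, 9.50 in 1059 inverted, 8.95 in 1103 inverted and 6.31 in 1109 normal, and it was 0.00 in 1037 normal, 1037 inverted and 1058 normal, 4.61 in 1059 normal and 1.65 in 1103 normal. The means of 8.07 ± 1.44 (SD, n = 4) and 1.25 ± 2.01 (SD, n = 5) differed by 6.82. KIAA1324, a transmembrane protein gene known to respond to oestrogen, was 6.62, 8.28, 8.01 and 6.63 in the high pieces in the same order. It was 0.00 in both teats of 1037 and in 1058 normal, 4.0 in 1059 normal and 3.21 in 1103 normal, a difference of 5.95. Its other probe set differed by 3.13 and overlapped. Both genes were listed at 0 in 3 low pieces. For 10 of the 16 symbols at least 3 of the 5 low values lay under the array's 30th percentile, among them 4 of 5 for EPCAM, LOC100737483, DSP and DPP4. The size of such differences depends on how the deposited summary treats dim probes.

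The adhesion gene EPCAM, whose protein joins epithelial cells, was 6.14 in 1040 normal, 9.64 in 1059 inverted, 8.69 in 1103 inverted and 6.45 in 1109 normal. It was 2.07 in 1037 normal, 1.17 in 1037 inverted, 1.84 in 1058 normal, 5.30 in 1059 normal and 3.61 in 1103 normal. The means were 7.73 ± 1.71 (SD, n = 4) and 2.80 ± 1.66 (SD, n = 5), a difference of 4.93. Both inverted-teat pieces on the high side stood above both normal-teat pieces, and 1059 normal was the highest of the low side, as for KRT19. CDH1, which encodes E-cadherin, differed by 3.89 but overlapped narrowly, since 1040 normal was at 5.91 and 1059 normal at 5.93.

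Other junction genes were less clear cut. Of 31 genes on the epithelial junction and polarity list, 17 were measured and 11 passed the filter. EPCAM, SPINT2 (an inhibitor of epithelial serine proteases) and OCLN (occludin of tight junctions) were higher without overlap, and none was lower without overlap. Of all symbols, 2.11% were higher without overlap. A positive difference was found in 11 of 11, beside 56.4% of all symbols, and the median was 0.83 beside 0.04. SPINT2 was 7.04, 8.91, 8.19 and 6.71 in 1040 normal, 1059 inverted, 1103 inverted and 1109 normal, and its low pieces ran from 5.20 to 6.66, so the gap between the groups was narrow. OCLN differed by 0.82 and its second detected probe set by 1.17. CLDN4 (claudin-4) and PRSS8 (prostasin) differed by 1.67 and 1.04 with overlap. The mean of the 11 genes was 6.24 to 7.67 on the high side, 5.10 to 5.87 on the low side and 7.74 to 8.54 in the high-CSN2 pieces, so the 3 sets of pieces did not overlap on this level. The genes that failed the filter included CLDN3 (claudin-3), which had means of 4.83 and 3.02 without overlap, and ESRP1 and ST14, which overlapped.

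Transcription factors of the luminal lineage formed the next set. FOXA1, a forkhead factor that opens chromatin for hormone receptors, was 5.89 in 1040 normal, 8.59 in 1059 inverted, 7.84 in 1103 inverted and 5.51 in 1109 normal. It was 2.33 in 1037 normal, 2.58 in 1037 inverted, 2.35 in 1058 normal, 4.24 in 1059 normal and 0.00 in 1103 normal. The means were 6.96 ± 1.49 (SD, n = 4) and 2.30 ± 1.51 (SD, n = 5), a difference of 4.66, with every low value under the array's 30th percentile.

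GATA3, needed for luminal cell fate in the mammary gland, was detected on both sides. It was 8.35 in 1040 normal, 9.30 in 1059 inverted, 9.16 in 1103 inverted and 7.82 in 1109 normal, and it was 7.36 in 1037 normal, 7.14 in 1037 inverted, 6.52 in 1058 normal, 6.90 in 1059 normal and 7.17 in 1103 normal. The means were 8.66 ± 0.70 (SD, n = 4) and 7.02 ± 0.33 (SD, n = 5). The difference was 1.64, and its other 3 probe sets differed by 1.47, 1.29 and 1.24, of which the one at 1.29 overlapped.

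ELF3 and EHF, both ETS factors of epithelia, were higher by 1.95 and 0.85, and for ELF3 a second probe set differed by only 0.37 with overlap. TFAP2B, an AP-2 family factor, differed by 3.28, with 5.12 to 7.70 on the high side and 1.74 to 4.32 on the low side, but its other probe set differed by -0.15. KIT, the receptor for stem cell factor that luminal progenitors carry, as do mast cells and melanocytes, was 7.91, 7.92, 7.35 and 7.96 in the high pieces and 6.19 to 7.33 in the low ones. The gap between its groups was narrow, from 7.33 in 1037 inverted to 7.35 in 1103 inverted.

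The other 6 genes of the same list that passed the filter overlapped between the sides. ESR1, the oestrogen receptor gene, differed by 0.32, XBP1, a secretory-pathway factor, by -0.01 and MUC1, a mucin gene, by -0.04. PGR and PRLR, the progesterone and prolactin receptor genes, failed the filter. Their values lay under the array's 30th percentile in all 5 low and all 4 high pieces, so they say nothing here. Of 26 genes on the luminal identity and hormone response list, 16 were measured and 11 passed. Higher without overlap were 5 (FOXA1, GATA3, ELF3, EHF and KIT, the last 2 by a narrow gap), beside 2.11% of all symbols. None was lower without overlap. The median was 0.55. The list's mean level was 6.94 to 7.49 on the high side and 5.94 to 6.36 on the low side. Without 1103 inverted the medians were 0.53 for this list and 0.80 for the junction list.

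The remaining genes of the 16 have more varied roles. DSP, which encodes the desmosomal plaque protein desmoplakin, was 6.37 in 1040 normal, 8.14 in 1059 inverted, 7.04 in 1103 inverted and 5.27 in 1109 normal, against 3.39 to 4.62 in the low pieces. Its difference was 2.65, and its other probe set, under the 30th percentile in all 4 high pieces, differed by 0.07. PAPSS2, an enzyme that makes the sulfate donor, was 6.65, 8.86, 7.10 and 6.33 in the high pieces and 5.03 to 5.46 in the low ones, a difference of 2.02. TSTD1, a sulfurtransferase gene, differed by 1.60 and DPP4, a cell-surface peptidase gene, by 1.38.

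PON3, a lactonase of the paraoxonase family, was the exception in several respects. It was 9.44 in 1040 normal, 8.97 in 1059 inverted, 9.61 in 1103 inverted and 10.49 in 1109 normal, against 8.23 to 8.86 in the low pieces. Its highest value was in 1109 normal, not in an inverted teat, and its epithelial values, 5.31 to 8.14 in the 8 teats other than 1103 inverted, lay below all 9 mesenchymal ones. For 14 of the 16 symbols the 2 highest pieces were both inverted-teat pieces, and PON3 and KIT were the exceptions. KRT19, which set the split, was itself highest in 1059 inverted and 1103 inverted, and the 16 were chosen by that split. The share over all symbols was not counted.

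**Figure D2:**
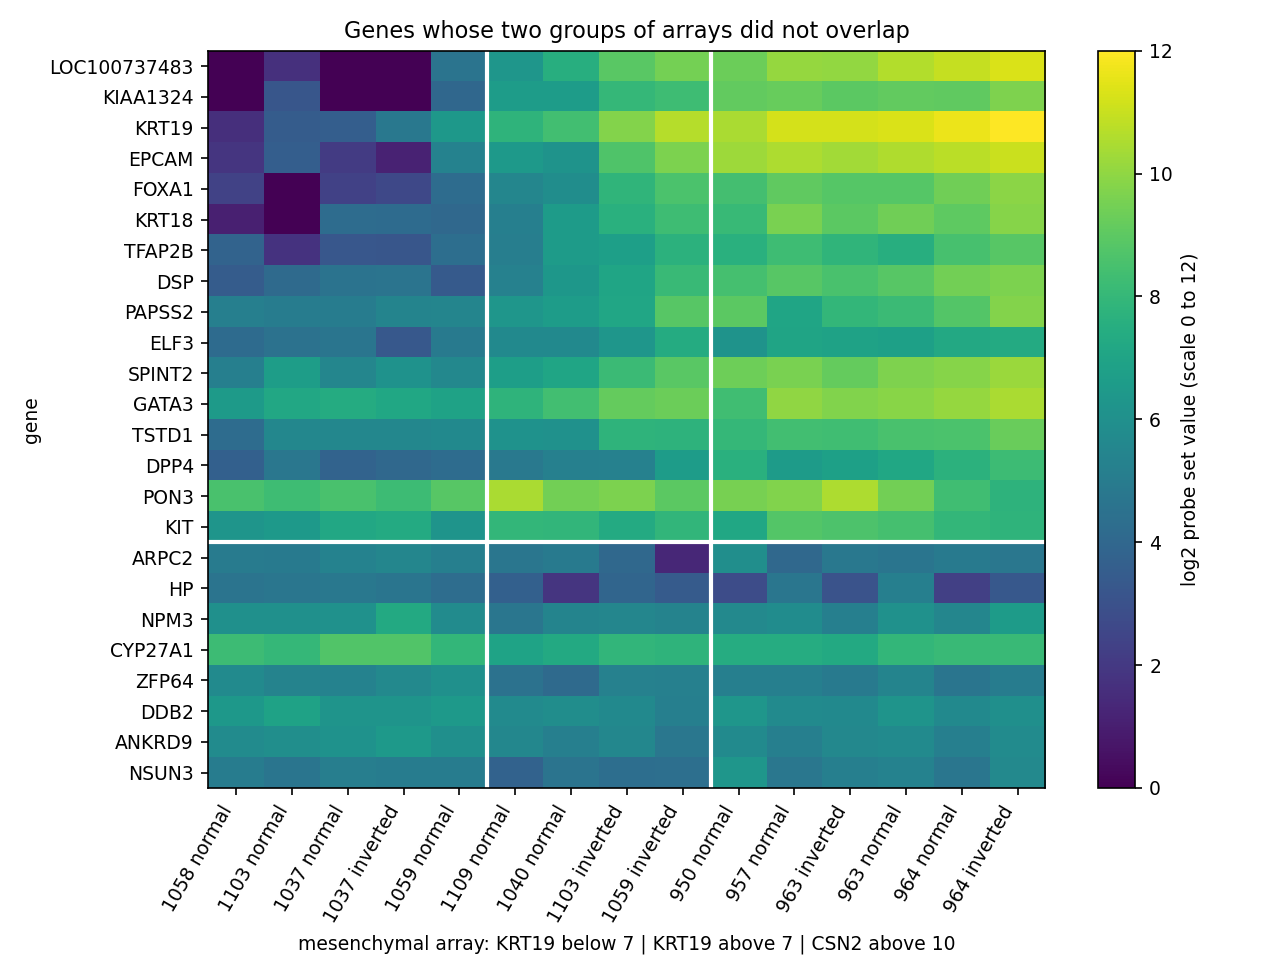
Log2 values (colour scale from 0 to 12) of the 16 symbols that were higher and the 8 with the largest negative difference among symbols whose groups did not overlap, in rows, over the 15 mesenchymal pieces in columns; white lines separate the sides. The upper rows brighten from left to right for most genes. PON3 is the upper row whose median in the right-hand 6 pieces (9.49) is not above its mean in the keratin-high ones (9.63).

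The genes that were lower with KRT19 were few, and some of them were dim. ARPC2, a subunit of the actin-nucleating Arp2/3 complex, was 4.93 in 1040 normal, 1.32 in 1059 inverted, 4.06 in 1103 inverted and 4.73 in 1109 normal, and 4.94 to 5.51 in the low pieces. Its difference of -1.43 came mainly from 1059 inverted and was -0.28 in normal teats alone. HP, the haptoglobin gene, was 1.85, 3.42, 3.94 and 3.70 in the high pieces, all under the 30th percentile, and 4.31 to 4.80 in the low ones, a difference of -1.40. The other 6 of the 8 largest negative differences ran from -0.98 for NPM3, a histone chaperone gene, to -0.70 for NSUN3. CYP27A1, a sterol hydroxylase gene, differed by -0.84 and DDB2, a DNA damage sensor gene, by -0.81. Within animals 1059 and 1103 the differences were only -0.15 and -0.09 for CYP27A1, and -1.27 and -1.21 for DDB2. Other probe sets differed by -0.88 and -0.77 for CYP27A1 and by -0.01 and -0.4 for DDB2, all with overlap.

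The same animal contributed to both sides in 2 cases, which removes differences between animals. Within animal 1059 the inverted-teat piece minus the normal-teat piece was 4.27 for KRT19, and within animal 1103 it was 6.30. The same differences were 4.34 and 5.09 for EPCAM, 4.35 and 7.84 for FOXA1, and 2.40 and 1.99 for GATA3. That the 16 symbols were higher in the keratin-high piece of both animals follows from their choice, and 25.0% of all symbols were so. For PON3 the difference within animal 1059 was only 0.11. Of all symbols, 75 were higher in both animals with a mean difference of at least 1 (1.25%), and 15 of the 16 were among them. In the other direction 27 were lower in both (0.449%). In these 2 animals the side and the teat type cannot be told apart, because the keratin-high piece was the inverted teat in both.

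In normal teats alone, 1040 and 1109 stood on the high side and 1037, 1058, 1059 and 1103 on the low side. Groups chosen for not overlapping cannot overlap in a subset, so only the sizes are given. The differences were smaller for the leading genes, 4.31 for KRT19, 3.09 for EPCAM, 3.47 for FOXA1 and 1.1 for GATA3. At this size of group the count of symbols reached 37 higher and 37 lower by at least 1, of which 14 and 1 were among the counts above.

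Whether keratin followed the labels was tested on the mean of KRT8, KRT18 and KRT19 in the 9 pieces. In the 3 affected animals with both teats among the 9 pieces, the inverted teat was higher by 3.66 (7.87 ± 2.36 against 4.21 ± 1.72, SD, n = 3 each), with the inverted teat above the normal one in 3 of 3 animals. The exact permutation test of signs within animals gave a two-sided p of 0.25, which is the smallest that 3 pairs allow. In animal 1037 both teats were keratin-low, with means of 4.46 for the normal and 5.19 for the inverted teat. Without animal 1103, whose inverted teat went against its labels in luminal genes, the difference was 2.30. The affected animals with high CSN2 were not part of the test and went both ways. Their inverted and normal teats were at 10.39 and 10.61 in animal 963 and at 11.14 and 10.52 in animal 964. Normal teats of affected animals were lower than those of non-affected animals by 1.31 (4.21 ± 1.72 against 5.52 ± 2.52, SD, n = 3 each), with an exact two-sided permutation p of 0.5 where 0.1 is the smallest possible.

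The epithelial pieces of the same 9 teats give a measure that the split did not use. Their keratin mean was 10.23 in 1040 normal, 9.59 in 1059 inverted, 6.75 in 1103 inverted and 10.52 in 1109 normal. In teats with keratin-low mesenchyme it was 9.37 in 1037 normal, 10.18 in 1037 inverted, 9.27 in 1058 normal, 10.32 in 1059 normal and 10.25 in 1103 normal. The difference was -0.60 (9.27 ± 1.73, SD, n = 4, against 9.88 ± 0.51, SD, n = 5), with an exact two-sided permutation p of 0.698 where 0.0159 is the smallest possible. Without 1103 inverted it was 0.24 (10.11 ± 0.48, SD, n = 3), with an exact permutation p of 0.464. Epithelial CSN2 was also low in all 9 teats and differed by 0.32 (5.19 ± 0.59 against 4.86 ± 0.42, SD, n = 4 and 5, exact permutation p of 0.349). Adjusted by Benjamini-Hochberg over the 4 comparisons of this kind, the exact permutation p-values lay between 0.667 and 0.698. The exact tests on epithelial pieces exchanged teats freely and took no account of teats from the same animal.

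**Figure D3:**
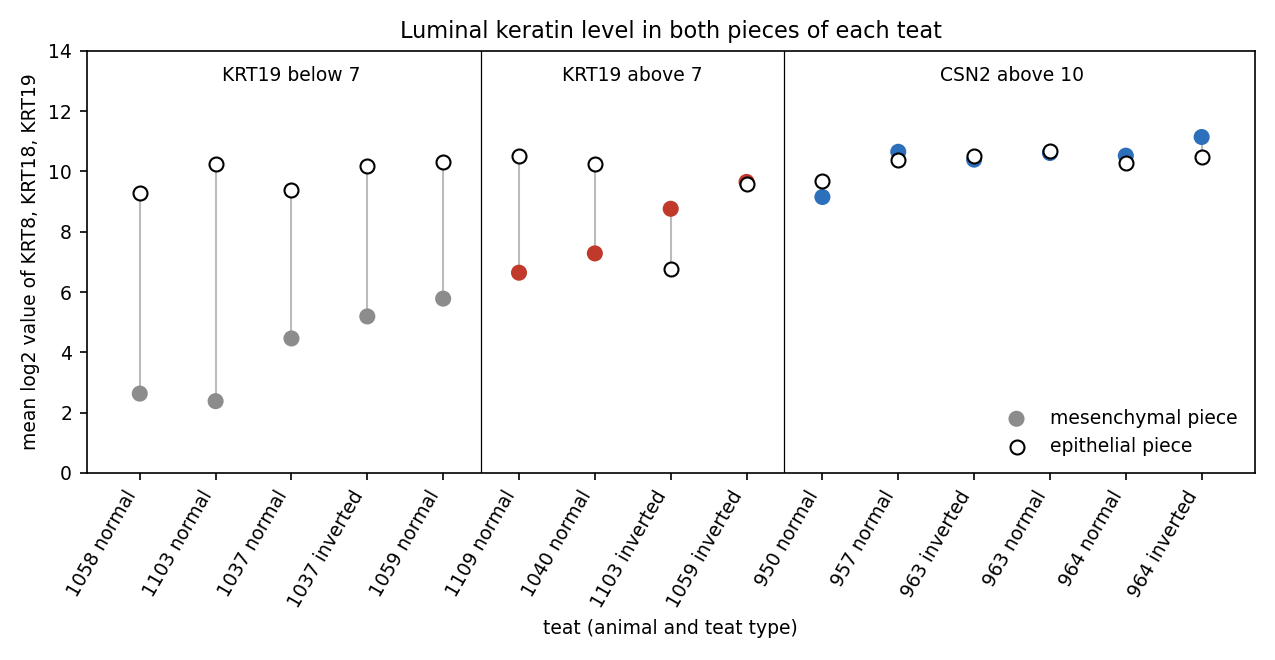
Mean log2 value of KRT8, KRT18 and KRT19 (vertical axis) in the mesenchymal piece (filled, grey for KRT19 below 7, red for KRT19 above 7, blue for high CSN2) and the epithelial piece (open) of each of 15 teats, joined by a line. The epithelial pieces lie between 9.27 and 10.66 except that of 1103 inverted at 6.75, and the mesenchymal pieces span 2.38 to 11.14.

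Across all probe sets, no gene in the epithelial pieces was called by the state of the mesenchyme. limma tested 17288 probe sets in the 9 epithelial arrays and called 0 at an adjusted p under 0.05 (0.0%), and 867 had an unadjusted p under 0.05 (5.02%). With the animal as a replicate block, 0 were called and 870 had an unadjusted p under 0.05. All 16 symbols were tested and 0 were called, with differences from -1.11 for KIAA1324 to 0.16 for KIT, 2 of them positive. The signs rested on 1103 inverted: without it 0 probe sets were called, 1220 had an unadjusted p under 0.05, and the 16 differences ran from -0.55 for PON3 to 0.65 for KIT, with 14 positive and 12 of opposite sign to before. KRT19 itself differed by -0.65 ± 0.87 (SE, limma, adjusted p of 0.90), and by 0.44 ± 0.41 (SE, limma, adjusted p of 0.79) without that teat. FOXA1 differed by -0.86 ± 1.03 (SE, limma, adjusted p of 0.89), and by 0.47 ± 0.41 (SE, limma, adjusted p of 0.78) without it. With 4 against 5 arrays, differences of about the size of these errors were not detectable.

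The epithelial genes with the smallest p were of other kinds. ATF3, a stress-response transcription factor gene, differed by 1.25 ± 0.29 (SE, limma, adjusted p of 0.85), CALCRL, a receptor gene of endothelium, by 0.65 ± 0.17 and TMEM260 by 0.51 ± 0.13. TOP2A, a topoisomerase gene of dividing cells, differed by -0.76 ± 0.18, ARMC6 by -0.59 ± 0.14 and LOC396781 by -2.47 ± 0.61, all 5 with the same adjusted p of 0.85. None of the 6 was among the 16 symbols.

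**Figure D4:**
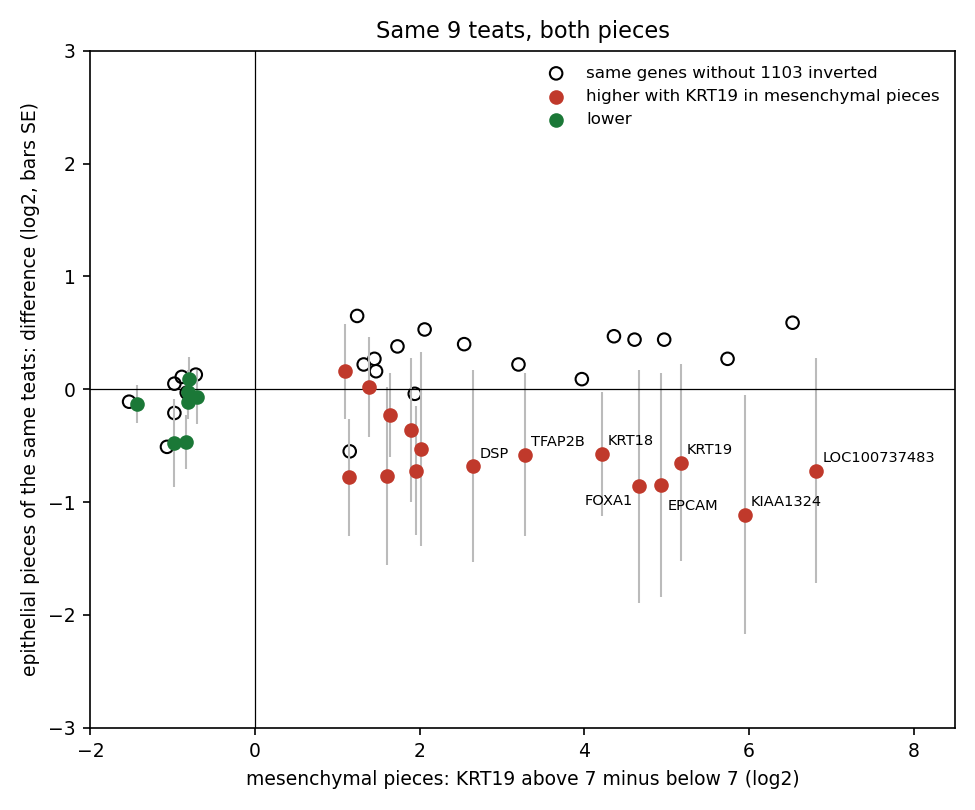
Difference between teats with KRT19 above and below 7 in the mesenchymal pieces (horizontal axis, log2) and in the epithelial pieces of the same teats (vertical axis, log2, bars are limma standard errors) for the symbols of the mesenchymal comparison; filled points use all 9 teats, open circles leave out 1103 inverted, and HP was not tested in epithelium. The red points spread from 1.09 to 6.82 across and from -1.11 to 0.16 up, while their open circles lie between -0.55 and 0.65 up.

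The levels of the 16 symbols were also read in the epithelial pieces and in the high-CSN2 pieces. Their choice for low values in the keratin-low pieces favours the counts that follow, and the share over all symbols was not counted. In the 8 epithelial pieces other than 1103 inverted, 15 of the 16 symbols lay wholly above the keratin-low mesenchymal pieces. With 1103 inverted included, 7 of the 16 did. In the 6 mesenchymal pieces with high CSN2, 14 of the 16 lay wholly above the keratin-low pieces, and for 15 the median was above the mean of the keratin-high pieces. FOXA1, for example, was 8.42 to 9.91 in the high-CSN2 pieces and EPCAM 10.24 to 11.02. PON3 was the exception in both sets and KIT in the second.

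The genes whose values across the 9 pieces were most like KRT19 were LOC100737483 (Pearson's r of 0.957), SRSF5, a splicing factor gene (0.957), PRTN3 (0.951), BRD8 (0.945) and FOXA1 (0.93). These are descriptions over 9 arrays of 6 animals that were split on KRT19, and SRSF5, PRTN3 and BRD8 differed by only 0.54, 0.66 and 0.44 between the sides.

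Genes of milk synthesis and of secreted defence that passed the filter did not separate the sides as lists. Of 17 genes on the milk protein and secretory list, 13 were measured and 9 passed the filter, 0 were apart in either direction and the median was 0.12. Of all symbols, 2.11% were higher and 0.582% lower without overlap, so 0 of 9 says little by itself. Its mean level was 7.44 to 8.08 on the high side, 7.36 to 7.75 on the low side and 9.04 to 10.12 in the high-CSN2 pieces. Over all 13 measured genes, dim ones included, it was 6.12 to 6.8 on the high side and 5.89 to 6.11 on the low side. On that level the sides were narrowly apart. Of these values 1 was 0 on the high side and 5 were 0 on the low side. LALBA, the alpha-lactalbumin gene, differed by 0.11, and STAT5A and STAT5B, which carry the prolactin signal, by -0.02 and -0.24.

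On the secreted defence list, 18 of 22 genes were measured, only 6 passed and 0 were apart, with a median of -0.32. That median covers only the 6. Beside 2.11% of all symbols higher and 0.582% lower without overlap, 0 of 6 says little. Over all 18 measured genes the mean level was 4.45 to 5.43 on the high side and 3.82 to 4.5 on the low side, with overlap. SLPI, a protease inhibitor gene, was 10.18 in 1040 normal, 9.52 in 1059 inverted, 10.89 in 1103 inverted and 11.38 in 1109 normal, a difference of 1.12. The groups overlapped, with 1037 inverted between 1059 inverted and 1040 normal. JCHAIN, which joins the subunits of secreted IgA and IgM, differed by -0.97 with overlap. WFDC2 was among the genes that failed the filter and was 3.47, 7.68, 7.80 and 4.78 in the high pieces against at most 3.41 in the low ones. Its other probe set, with means of 5.21 and 5.12, differed by only 0.09 with overlap. LTF, the lactoferrin gene, also failed the filter and differed by 3.49. It was highest in 1040 normal at 7.01 and overlapped at 1109 normal, which was at 4.13. Of the others that failed, NPG4, MMP7 and CCL28 differed by 2.81, 2.06 and 1.85 with overlap. LPO, S100A8 and S100A12 failed it too and differed by -0.9, -0.32 and -0.4.

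Without the filter, 24 symbols were higher and 5 lower. The 8 that it added on the high side were CLDN3, CPB1, CRISP2, FXYD3, SOX9, TSNAXIP1, TTR and WFDC2, each above the 30th percentile in at most 3 of the 9 arrays. CRISP2 had means of 4.78 and 0.47, FXYD3, a regulator of the sodium pump, of 5.37 and 2.70, and SOX9, a progenitor factor, of 3.44 and 0.53.

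Markers of the other cells that a teat piece can hold were compared in the same way. Beside the counts of genes apart stand 2.11% of all symbols higher and 0.582% lower without overlap. The basal and myoepithelial list had 3 genes that passed of 6 measured and 18 listed, 0 of them apart, with a median of 0.12, so it says little. The keratinocyte and desmosome list had 9 that passed of 30, with DSP alone apart and a median of 0.41, and PERP, another desmosome gene, differed by 1.83 with overlap. Its mean level was 6.71 to 7.43 on the high side and 6.25 to 6.96 on the low side.

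Lists of stromal cells differed little. The medians were 0.18 for adipocytes (17 genes), 0.21 for smooth muscle and pericytes (16 genes), 0.18 for endothelium (13 genes), 0.02 for leukocytes (15 genes), -0.01 for fibroblasts and matrix (27 genes), 0.06 for Schwann cells and nerve (5 genes) and 0.24 for melanocytes (4 genes). Only CALD1, the caldesmon gene, was apart among them, by 0.61, beside 2.11% of all symbols higher without overlap. A count this low does not set these lists apart from all symbols. VIM, the vimentin gene, differed by 0.02 and ACTA2, the smooth muscle actin gene, by 0.40.

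Skeletal muscle differed more, and 1 piece carried it for most genes but not for several slow-fibre ones. The median over 28 of 34 listed genes was -2.04 with 0 apart, and the list's mean level was 3.73 to 11.11 on the high side and 8.65 to 11.77 on the low side. With 0.582% of all symbols lower without overlap, 0 of 28 says little. MYLPF, a fast muscle myosin light chain gene, was 1.15 in 1040 normal and 11.72 to 13.44 in the other 8 pieces, and TNNT3, the fast troponin T gene, was 0.00 there. Without 1040 normal the list's median was -0.20, and within animals 1059 and 1103 it was 0.09. Several genes of slow fibres kept a lower level without that piece. CA3 and TPM3, which slow fibres also express, differed by only -0.19 and 0.05 without it. MYL2, a slow myosin light chain gene, was 3.26 in 1040 normal, 7.71 in 1059 inverted, 1.90 in 1103 inverted and 4.15 in 1109 normal, against 5.71 to 10.80 in the low pieces. Its groups overlapped, and its difference of -3.98 was -3.65 without 1040 normal, -3.09 within animal 1059 and -3.81 within animal 1103. TNNT1, the slow troponin T gene, differed by -4.30, and by -3.43 without 1040 normal. Of the 28 genes, 7 had a difference of -1 or lower without 1040 normal (MYL2, TNNT1, TNNI1, TNNC1, MYH7, MYL3 and ACTN2). In the keratin-high piece of both animals, 7 were lower. The shares of all symbols that did so were not counted. MYH2 went the other way, with a difference of 2.07 without 1040 normal. The part of muscle content in the differences of the 16 symbols was not tested.

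Of the lists of processes, teat bud development had 9 genes that passed of 25, a median of -0.10 and FGFR2, a fibroblast growth factor receptor gene, apart by 0.65. PTHLH, whose product is needed for the nipple to form, differed by 0.39 with overlap. The immediate early and heat shock list (23 genes) had a median of 0.36 with HSP90AA1 apart by 0.38, and the cell cycle list (15 genes) had a median of 0.05 with 0 apart. Of all symbols, 2.11% were higher without overlap, so 0 or 1 gene apart on lists of this size says little. Of the 16 symbols, 9 were on one of these lists. No listed gene that passed the filter was lower without overlap, beside 0.582% of all symbols.

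**Figure D5:**
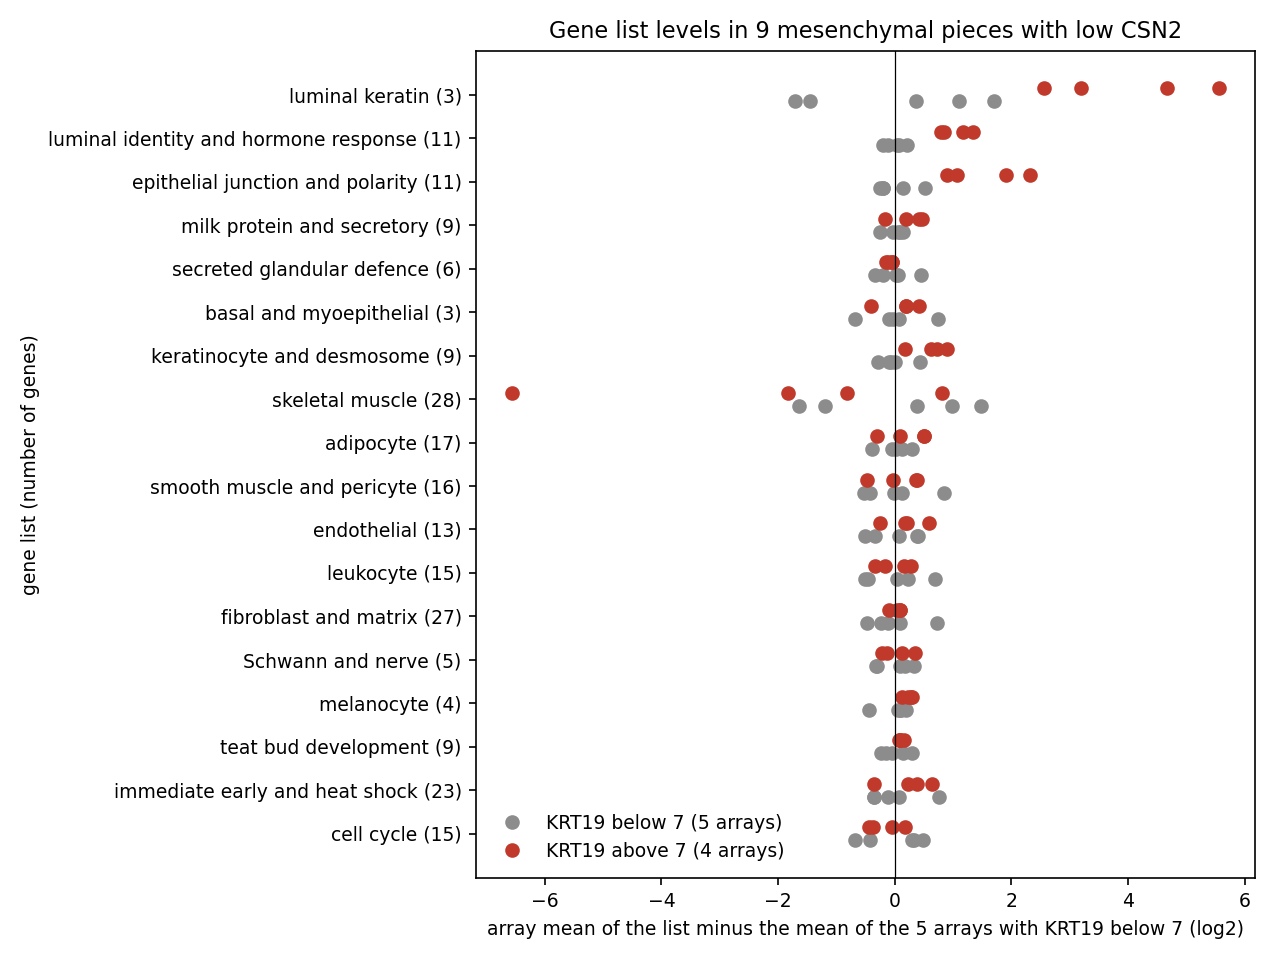
Mean log2 level of each gene list (rows, with the number of genes that passed the filter) in each of the 9 pieces, given as the distance from the mean of the 5 keratin-low pieces (horizontal axis). The 4 red points lie to the right of all 5 grey points for luminal keratin, luminal identity and hormone response, and epithelial junction and polarity, and 1 red point, 1040 normal, lies far left for skeletal muscle.

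Every value comes from RNA of a whole piece, so more luminal cells in the keratin-high pieces and more of these transcripts per luminal cell cannot be told apart. How each piece was separated into epithelial and mesenchymal tissue, and its part in these differences, was not tested.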

How the data were processed

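The 9 arrays, the gene lists and the tests were chosen with earlier results of these data known. The deposited values are the authors' log2 probe set summaries of 24123 probe sets per array. The submitters' processing notes name GCOS 1.1.1 and PLIER without their roles. Base 2 for the logarithm was read from the values themselves (0 to 20.8), and normalization between arrays is not given in the sources used here. Array medians lay between 5.71 and 6.04, and 427 to 754 values per member array were 0. The number of arrays limits the precision.

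Control probe sets (124) were left out. A platform table named 10099 probe sets by 1 symbol, 198 by several and left 13826 unnamed here, and each of 6765 symbols was read from its probe set with the highest mean. No 2 arrays correlated above 0.9539, so none was taken for a copy. Animals differ between arrays except where both teats or both tissues come from 1 animal, and the animal was a replicate block in an alternative only.

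The mesenchymal sides were compared by means, SD and overlap. Named genes are the keratins and CSN2, the 15 largest positive differences beside KRT19, the 8 largest negative ones, list members and the 3 with the smallest p in each direction in epithelium, and other genes given with values were chosen after these were seen. Epithelial pieces were tested with limma 3.58.1 in R 4.3.3 (lmFit, eBayes, Benjamini-Hochberg, threshold 0.05), tested on simulated data first. Exact permutation tests used SciPy 1.17.1. Alternatives changed the scaling, filter, size rule, probe set, block, covariate and arrays used.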

Additional observations from a re-analysis of the deposited data

Results flagged for a closer look

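In 158 groups of values examined, 11 had 1 piece whose distance from the rest of its side was large for the range of that side, and chance alone flags about 5% of groups. In the keratin-low pieces, TSTD1 was 4.26 in 1058 normal against 5.54 to 5.70 in the others, and OCLN was 5.85 there against 6.62 to 6.89. LEP, the leptin gene of fat cells, was 7.86 in the same piece against 8.75 to 8.90. NPM3 was 7.30 in 1037 inverted against 5.79 to 6.07, NSUN3 was 4.66 in 1103 normal against 5.02 to 5.13, and the melanocyte list was 4.94 in 1037 normal against 5.44 to 5.57.

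In the keratin-high pieces, KIT was 7.35 in 1103 inverted against 7.91 to 7.96, and NPM3 was 4.69 in 1109 normal against 5.39 to 5.51. JCHAIN was 6.53 in 1059 inverted against 4.63 to 4.91, and PTH1R, the receptor gene for PTHLH, was 5.10 there against 6.14 to 6.26. CD14, a monocyte and macrophage gene, was 5.42 in 1040 normal against at least 6.43 in the other 3.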

How the results depend on the processing

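Counts of symbols that were higher and lower in keratin-high pieces (16 and 2) were within 1.5 times under quantile normalization (13 and 2), another probe set per gene (18 and 2) and 1 value per animal and side (18 and 2). They were 24 and 5 with no filter, 127 and 35 with no minimum difference, and 30 and 5 without the 2 pieces nearest the KRT19 threshold. Leaving out 1 piece in turn gave 16 to 28 higher and 2 to 18 lower. Alternatives chosen after seeing the data gave 25 and 35 without both inverted-teat pieces of the high side, 37 and 37 in normal teats only, and 75 and 27 within the 2 animals with a piece on each side, the replicate block by difference. These last counts rest on fewer pieces, where groups separate more easily.

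In the epithelial pieces, limma called 0 probe sets under every alternative run: quantile normalization, no filter, affection status as a covariate, the animal as a replicate block (870 at an unadjusted p under 0.05, consensus correlation 0.339) and each teat left out (428 to 1317). The inverted-minus-normal keratin difference was 2.30 to 5.12 with 1 animal left out, 3.93 for KRT19 alone, and had an exact permutation p of 0.2 with no replicate block. The affected-minus-non-affected difference was -2.76 to -0.40 with 1 animal left out. Of 1289 gene differences recomputed under the alternatives, 1266 moved by less than 1 SD, 23 by more and 0 of those called changed sign, and of 324 list medians 7 moved by more. Dim values limit the 10 symbols of 16 with at least 3 low pieces under the 30th percentile, among them KRT18, FOXA1, KIAA1324 and TFAP2B with all 5 and EPCAM, LOC100737483, DSP and DPP4 with 4.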
